A study of Homo sapiens with 21 samples.

Results

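The comparison described here set FADU cells overexpressing METTL4 against FADU cells carrying the control vector, both kept at normoxia. FADU is an established human head and neck squamous carcinoma cell line. The study asked what METTL4, a DNA adenine methyltransferase, changes in the transcriptome of cancer cells, and whether these changes touch the response to low oxygen and the epithelial-mesenchymal transition (EMT). There were 2 control libraries and 2 METTL4 libraries of total RNA, among 21 libraries of the series analysed here. Cells of all 4 libraries grew in DMEM with serum and were kept at 18% O2 for 18 h. The METTL4 cells had received a human METTL4 cDNA with a Flag tag in the pcDNA3 vector, and the control cells the vector. The study describes such cells as stably transfected clones. How many clones stand behind the 2 libraries of a group is not given in the sources used here, so differences between clones and effects of METTL4 cannot be told apart. No label says that the libraries of a group came from separate cultures, and the p-values below then measure only the spread between these libraries. All genes were taken that had a value of 1 or more in at least 2 of the 4 libraries, which left 15218 of 18316 genes in the table. A value is the CPM of a gene, its reads divided by the size of the library as the authors scaled it with the TMM method. Whole reads could be recovered from it, and 20390820 and 20903701 reads lay on genes in the control libraries and 20257044 and 22020385 in the METTL4 libraries.

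METTL4 belongs to a family of methyltransferases that place a methyl group on the N6 position of adenine. In the nucleus it has been linked both to N6-methyladenine in DNA (6mA) and to the methylation of U2 snRNA, a core component of the spliceosome. Hypoxia-inducible factors (HIFs) are transcription factors that accumulate when oxygen falls and that turn on genes of glucose uptake, glycolysis and blood vessel growth. In EMT, epithelial cells lose junction proteins such as E-cadherin and gain mesenchymal proteins such as vimentin and N-cadherin, under transcription factors of the Snail, ZEB and Twist families.

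All 8 markers of squamous carcinoma cells were present in every library, with summed values of 4750 and 4673 in the control and 4310 and 4218 in the METTL4 libraries. Of 47 markers of 7 other cell types, 13 had a row in the table, and their summed value for 1 type was between 1.91 and 25.8 in the control libraries and between 1.29 and 16.3 in the METTL4 libraries. The log2 values of the libraries correlated at 0.997 within the control group and 0.998 within the METTL4 group across genes, and at 0.983 or more between the groups.

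METTL4 RNA was raised in both METTL4 libraries. Its gene lies on the minus strand of chromosome 18 (GRCh37 chr18:2537524-2571508). METTL4 had values of 35.4 and 32.7 in the control and 158 and 139 in the METTL4 libraries, a 4.34-fold higher mean. On the log2(value + 1) scale, on which all fold changes here are given, the difference was 2.09 ± 0.066 (SE, n = 2 against 2, limma, adjusted p = 1.56e-09). The groups stood far apart, and only 19 of the genes tested had a larger log2 fold change. Reads were counted per gene, so reads of the introduced cDNA and of the chromosomal gene cannot be told apart. Per kilobase of annotated exon, the mean value of METTL4 was 5.95 in control and 25.9 in METTL4 libraries, against 10.7 and 10.8 for METTL3, the catalytic subunit of the RNA adenine methyltransferase. The protein-coding gene that starts next to METTL4 on the other strand, NDC80, a kinetochore component, had values of 73.4 and 76.6 in the control and 78.3 and 83.9 in the METTL4 libraries and passed no call (0.11, limma, adjusted p = 0.12). Of 2 nearby lncRNA genes, ENSG00000263745 had values between 1.09 and 1.76, and ENSG00000266783, which lies inside METTL4 on the same strand, between 1.68 and 2.36, and neither was called.

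The study followed the lncRNA RP11-390F4.3 as a target of METTL4 and placed a candidate 6mA site in front of it. This name is not in the annotation used here, so the gene was located by sequence. The 3 knock-in primers of the study each matched chromosome 9 of GRCh37 once, between positions 6715941 and 6716289. Of 8923 transcripts annotated on this chromosome, 1 carried the site at the stated distance from its start, and it belongs to the lncRNA gene ENSG00000225489 (chr9:6716157-6727438, plus strand). Its start at 6716495 puts the site from -231 to -224, at 6716264 to 6716271. The annotation has other transcripts of the gene that start further upstream, so that the site lies within the gene as annotated. The stretch around the site is shown because the study built its experiments on it, with the site in capitals (chr9:6716253-6716282, plus strand, GRCh37):
RP11-390F4.3 site: ggagggccaggACTTCCGAggctttagggg
RP11-390F4.3 had values of 12.9 and 13.4 in the control and 21.8 and 21.7 in the METTL4 libraries. Both METTL4 libraries lay above both control libraries, and the gene rose by 0.68 ± 0.079 (SE, limma, adjusted p = 4.44e-05). In FADU cells moved from 18% to 1% O2, in a separate set of libraries, its log2 fold change was 1.3.

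Across all genes tested, 2846 were called at an adjusted p under 0.05 (limma, Benjamini-Hochberg) and a change of 1.3-fold or more. Of these, 1236 rose and 1610 fell in METTL4 libraries, which is 8.12% and 10.6% of the genes tested, and the counts of gene lists below are read against these shares. Counts at an unadjusted p under 0.05 without a fold threshold have no such share here. The median log2 fold change of all genes was 0.008. At 2-fold or more, 203 genes rose and 204 fell. The libraries of both groups did not overlap for 70.2% of all genes tested, so a gap between the groups is common in this table. Of the genes tested, 141 passed the filter only through the METTL4 libraries, with both control values under 1, and 307 only through the control libraries, and such genes had to differ. Without them 1144 genes rose and 1436 fell. In every called member of the gene lists below the libraries of both groups did not overlap. The same held for all but 1 of the 2846 called genes, so it says nothing particular about the lists. In bulk libraries, fewer cells of a type and less RNA per cell cannot be told apart.

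**Figure D1:**
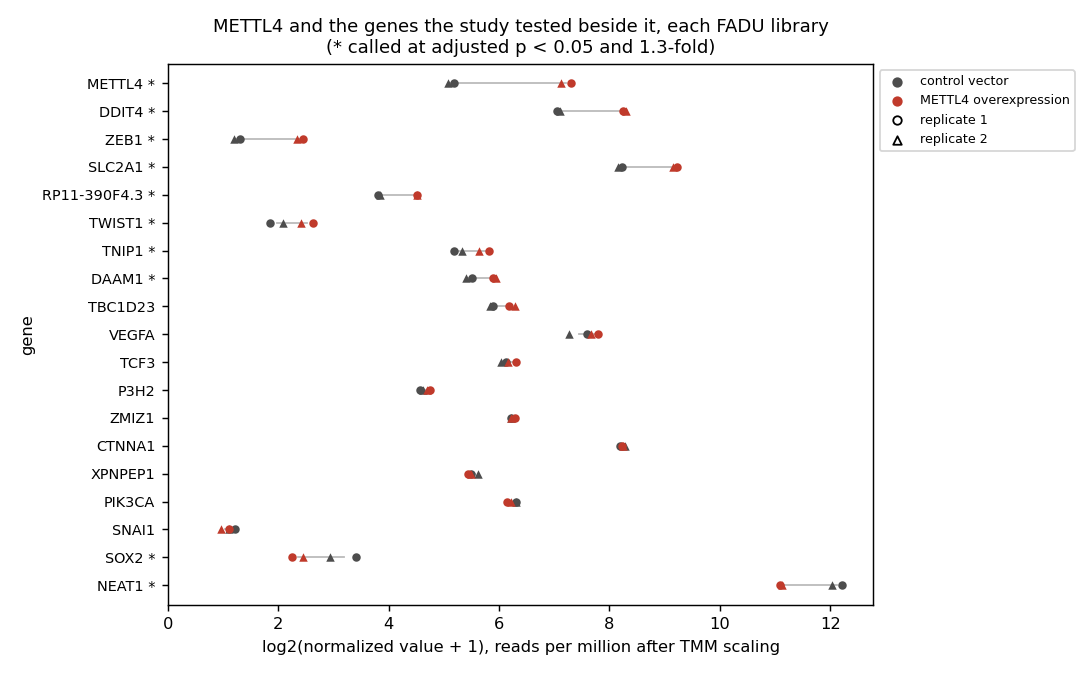
METTL4, RP11-390F4.3 and other genes that the study examined, by library. Each point is 1 library on the log2(value + 1) axis, grey for the control vector and red for METTL4 (circle, replicate 1; triangle, replicate 2), and lines join the group means. METTL4 moved by 2.09, and called genes carry an asterisk.

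Of the 7 EMT transcription factors that the study named, 2 rose, 1 fell, 2 were tested without a call and 2 were not tested. ZEB1, a repressor of E-cadherin, had values of 1.48 and 1.3 in the control and 4.42 and 4.03 in the METTL4 libraries and rose by 1.13 ± 0.14 (SE, limma, adjusted p = 6.18e-05). TWIST1, a helix-loop-helix factor of mesoderm and EMT, had values of 2.62 and 3.26 in the control and 5.17 and 4.35 in the METTL4 libraries and rose by 0.55 (limma, adjusted p = 0.00869). Without METTL4 replicate 1 its difference was 0.45 (limma, adjusted p = 0.0935). SOX2, a factor of stem cells and of squamous epithelium, moved the other way. Its values were 9.59 and 6.65 in the control and 3.78 and 4.44 in the METTL4 libraries, and it fell by 0.82 (limma, adjusted p = 0.00139). SNAI1, which encodes Snail, was close to the filter with values of 1.34 and 1.16 in the control and 1.14 and 0.952 in the METTL4 libraries and a difference of -0.14 (95% interval -0.47 to 0.20). TCF3, which encodes the E2A factors, had values of 69.2 and 64.8 in the control and 77.9 and 70.5 in the METTL4 libraries and a difference of 0.14 (95% interval 0.013 to 0.28). ZEB2 did not pass the filter, with values of 0.191 and 0.326 in the control and 0.994 and 0.589 in the METTL4 libraries. Tested without the filter, it was called upward at 0.50 (limma, adjusted p = 0.0254), on 4 and 7 reads against 20 and 13. KLF8 was not analysed here. All of these factors other than TCF3 had values under 10. SOX2 apart, those analysed lay at 5.17 or less in every library, and these rest on few reads. ZEB1, for example, had 31 and 28 reads in the control and 89 and 89 in the METTL4 libraries.

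Among 16 other EMT-related transcription factors, 10 were tested, of which 5 rose and 1 fell. SNAI2, the Slug repressor, rose from values of 31.01 and 29.5 to 73.6 and 69.8, a log2 fold change of 1.22 ± 0.058 (SE, limma, adjusted p = 3.64e-08). HMGA2, an architectural DNA-binding protein, had values of 48.7 and 42.6 in the control and 104 and 109 in the METTL4 libraries and rose by 1.21. SOX9, a factor of progenitor cells and cartilage, rose by 1.14 and TWIST2, the paralog of TWIST1, by 0.69. YBX1, a cold shock domain protein, rose by 0.45 from a high level, with values of 908 and 872 in the control and 1284 and 1151 in the METTL4 libraries. Without METTL4 replicate 1 it was at 0.37 and under 1.3-fold. TCF4 fell by 0.72, from values of 7.11 and 7.63 to 4.27 and 3.90. The median of the 10 was 0.31.

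Junction genes of epithelia fell and mesenchymal genes rose. Of 19 tested genes of the epithelial junction list, 8 fell, none rose and 11 were not called, with a median of -0.30. At an unadjusted p under 0.05 alone 3 were higher in METTL4 libraries, 0 of them by 1.3-fold, and edgeR called 0 upward. Leaving out control replicate 1 gave 1 call upward, the plaque protein PKP2 at 0.42. CDH1, which encodes E-cadherin, had values of 237 and 242 in the control and 143 and 137 in the METTL4 libraries and fell by 0.77 (95% interval -0.87 to -0.68, limma, adjusted p = 1.23e-07). CLDN1, a tight junction claudin, fell by 2.0, from 63.5 and 63.5 to 14.6 and 15.6. CLDN4, another claudin, fell by 1.36, and PKP1, a plaque protein of desmosomes, by 1.02. The desmosomal cadherins DSC3, DSC2 and DSG3 fell by 0.76, 0.64 and 0.55, and the tight junction protein OCLN by 0.55. The catenin genes were not called. JUP, which encodes plakoglobin, had values of 245 and 246 in the control and 235 and 219 in the METTL4 libraries, CTNNB1 differed by 0.035 and CTNNA1 by -0.0028 (95% interval -0.10 to 0.092), both with overlapping groups.

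On the mesenchymal side, 17 of 20 genes were tested, and 12 rose, 2 fell and 3 were not called, with a median of 0.70. VIM, which encodes the intermediate filament vimentin, was at the detection limit in the control libraries, with values of 0.334 and 0.279 in the control and 2.39 and 2.45 in the METTL4 libraries. It rose by 1.39 ± 0.15 (SE, limma, adjusted p = 2.43e-05) and was low in both groups, on 7 and 6 reads against 48 and 54. VIM passed the filter only through the METTL4 libraries, and without it the count was 11 of 16. CDH2, which encodes N-cadherin, had values of 14.6 and 14.1 in the control and 21.4 and 20.2 in the METTL4 libraries and rose by 0.50 (limma, adjusted p = 0.000452). Per kilobase of exon, the mean value of CDH1 was 39.5 in control and 23.05 in METTL4 libraries, against 1.67 and 2.42 for CDH2, so E-cadherin RNA was the more abundant of both in either group. COL5A1, a fibrillar collagen chain, rose by 1.18, CDH11 by 1.16, the gelatinase MMP2 by 1.02 and FN1, which encodes fibronectin, by 0.52. COL1A1 and COL6A1 fell, by 0.62 and 0.41, but COL6A1 was at -0.35 and not called without METTL4 replicate 1, which left 1 of the 2 falls.

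The remaining genes that the study examined were split. By real-time PCR the study reported ZMIZ1, CTNNA1, PIK3CA, DAAM1, LEPREL1 (P3H2), XPNPEP1, TBC1D23 and TNIP1 to be activated by hypoxia or METTL4 overexpression. Of these, DAAM1 and TNIP1 alone were called here, both upward. Glut1 and REDD1 were measured there under hypoxia and METTL4 knockdown, and NEAT1 and VEGF served as controls of other assays. SLC2A1, which encodes the glucose transporter Glut1, had values of 299.9 and 283 in the control and 601 and 567 in the METTL4 libraries and rose by 1.00 ± 0.045 (SE, limma, adjusted p = 2.35e-08). DDIT4, which encodes the mTOR inhibitor REDD1, had values of 132 and 136 in the control and 303 and 313 in the METTL4 libraries and rose by 1.20 (limma, adjusted p = 3.28e-09). DAAM1, a formin, rose by 0.46, and TNIP1, an inhibitor of NF-kB signaling, by 0.48. NEAT1, the lncRNA of paraspeckles, fell by 1.01, from values of 4766 and 4189.8 to 2185 and 2246. TBC1D23 lay just under the fold threshold, with values of 58.1 and 55.9 in the control and 71.2 and 76.8 in the METTL4 libraries and a difference of 0.37 (limma, adjusted p = 0.000302). ZMIZ1, a coactivator that the study placed in the HIF pathway, had values of 73.6 and 73.3 in the control and 77.03 and 73.00 in the METTL4 libraries and a difference of 0.029 (overlapping groups, 95% interval -0.081 to 0.14). PIK3CA, XPNPEP1 and P3H2 differed by -0.13, -0.093 and 0.13 without a call, with overlapping groups in XPNPEP1, and VEGFA, the vascular growth factor, by 0.30. Without control replicate 1, VEGFA passed the call at 0.45, and TBC1D23 passed it at 0.40 without that library and at 0.42 without METTL4 replicate 1.

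Genes of the oxygen response rose in METTL4 libraries, although the cells were kept at 18% O2. Of 29 tested HIF target genes, 24 rose and none fell (0 also at an unadjusted p under 0.05 and with edgeR), with a median log2 fold change of 1.00 against 0.008 for all genes. BNIP3, a mitophagy receptor, had values of 15.03 and 10.3 in the control and 102 and 105 in the METTL4 libraries and rose by 2.96 ± 0.12 (SE, limma, adjusted p = 1.23e-08). CA9, the cell surface carbonic anhydrase used as a marker of hypoxic tumor tissue, had values of 0.906 and 0.744 in the control and 9.39 and 9.15 in the METTL4 libraries and rose by 2.49 (limma, adjusted p = 6.87e-08). The metastasis-related gene NDRG1 went from 119 and 101 to 667 and 642, an increase of 2.57. In each of these genes the lower METTL4 library was several times the higher control library. EGLN3 and EGLN1, prolyl hydroxylases that mark HIF proteins for destruction, rose by 1.95 and 1.02. The peptide hormone gene ADM rose by 1.58, the lipase inhibitor ANGPTL4 by 1.31 and the histone demethylase KDM3A by 1.16. Among collagen prolyl and lysyl hydroxylases, P4HA1 rose by 1.21, P4HA2 by 0.56 and PLOD2 by 0.56. MXI1, INSIG2, HILPDA, VEGFA and PFKFB4 were tested without a call, with differences from -0.014 to 0.36, and the groups of MXI1 and INSIG2 overlapped. CA12 did not pass the filter, with values of 0.348 or less. CA9 passed it only through the METTL4 libraries, and without CA9 the count was 23 of 28. Leaving out either METTL4 library put CA9 below the filter, so such fits held 28 of these genes. With 1 library left out at a time, between 21 and 24 of the genes rose.

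**Figure D2:**
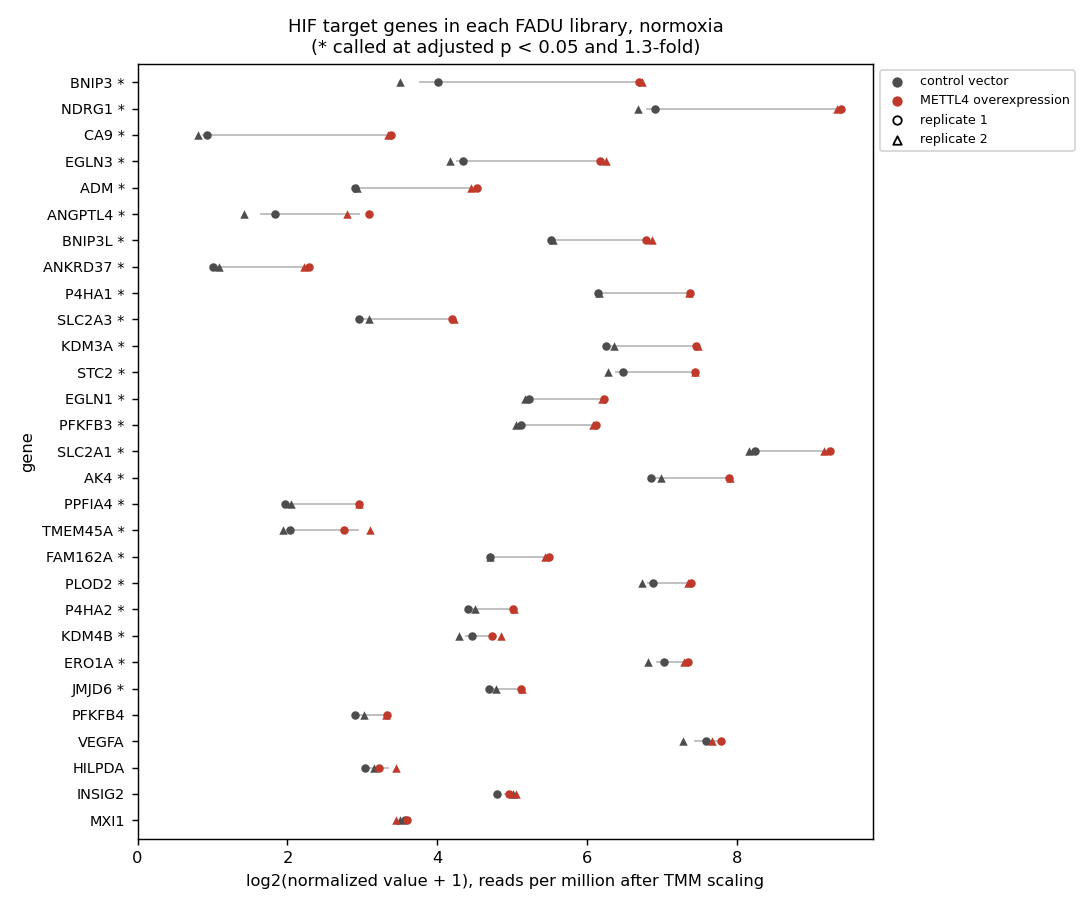
The 29 tested HIF target genes by library. Points are single libraries on the log2(value + 1) axis (grey, control vector; red, METTL4; circle, replicate 1; triangle, replicate 2), lines join group means, and an asterisk marks a called gene. The 24 called genes have both red points to the right of both grey points, from JMJD6, which was under 1.3-fold without control replicate 1 or METTL4 replicate 2, at 0.38 to BNIP3 at 2.96.

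Genes of glycolysis rose from glucose import to lactate export. Of its 20 genes, all tested, 16 rose, none fell (1 was lower at an unadjusted p under 0.05 alone, 0 with edgeR) and 4 were not called, and the median was 0.78. SLC2A1 and SLC2A3, the glucose importers, belong to both lists, and SLC2A3 rose by 1.19. HK2, the hexokinase of the first step, had values of 50.3 and 53.9 in the control and 164 and 169 in the METTL4 libraries and rose by 1.66 ± 0.051 (SE, limma, adjusted p = 1.37e-09). Its relative HK1 was not called at 0.26. Along the pathway GPI rose by 0.74, PFKP by 0.63, ALDOA by 0.82, TPI1 by 0.64, PGK1 by 1.13, PGAM1 by 0.81, ENO1 by 0.52 and PKM by 0.55. LDHA, which turns pyruvate into lactate, had values of 804 and 776 in the control and 1960.5 and 1959.7 in the METTL4 libraries and rose by 1.31 (limma, adjusted p = 1.37e-09). PDK1, which keeps pyruvate out of the mitochondria, rose by 1.42, and SLC16A3, a lactate exporter, by 1.02. GAPDH, often used as a reference gene, rose by 0.49, from values of 3034 and 3164 to 4355 and 4345. PFKM, PFKL and ALDOC were not called, at -0.12, 0.29 and 0.31.

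Of 11 tested HIF subunits and oxygen sensors, 3 rose and 1 fell, with a median of 0.026. The hydroxylases EGLN3 and EGLN1, given above as HIF targets, were 2 of the 3. HIF1A, the alpha subunit of HIF-1, had values of 213 and 185 in the control and 176 and 167 in the METTL4 libraries, with a difference of -0.21 (limma, adjusted p = 0.019) that did not reach 1.3-fold. EPAS1, the alpha subunit of HIF-2, fell by 0.42, from 86.7 and 95.7 to 67.3 and 68.3, but its difference of -0.35 without control replicate 2 was under 1.3-fold. ARNT, the shared beta subunit, and VHL, the ubiquitin ligase component that binds hydroxylated HIF, differed by -0.17 and 0.026 without a call, and the groups of VHL overlapped. ARNT2, a relative of ARNT at a low level, rose by 0.62 (without METTL4 replicate 1, limma, adjusted p = 0.0515). HIF proteins are set mainly by their stability, which these libraries do not measure.

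Promoters of some of these genes are shown because HIF binds a short element, which the study wrote as ACGTG, and because these genes moved together. The sequences are the 250 bases before the start in RefSeq's promoter table (GRCh38.p14), with ACGTG on either strand in capitals, so that CACGT is the same element read on the other strand and CACGTG holds both. CA9 lies at chr9:35673678-35673927 (plus strand), BNIP3 at chr10:131981924-131982173 (minus strand), DDIT4 at chr10:72273674-72273923 (plus strand) and INSIG1, a sterol-regulated gene that fell, at chr7:155297628-155297877 (plus strand).
CA9: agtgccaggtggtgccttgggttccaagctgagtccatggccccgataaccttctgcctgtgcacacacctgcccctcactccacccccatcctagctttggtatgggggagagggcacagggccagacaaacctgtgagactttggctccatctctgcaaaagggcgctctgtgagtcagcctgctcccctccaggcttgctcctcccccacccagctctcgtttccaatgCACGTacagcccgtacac
BNIP3: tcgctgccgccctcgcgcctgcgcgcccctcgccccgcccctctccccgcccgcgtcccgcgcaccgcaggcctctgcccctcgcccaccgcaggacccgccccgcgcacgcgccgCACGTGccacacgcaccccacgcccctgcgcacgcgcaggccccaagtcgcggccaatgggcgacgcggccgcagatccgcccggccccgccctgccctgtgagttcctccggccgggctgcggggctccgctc
DDIT4: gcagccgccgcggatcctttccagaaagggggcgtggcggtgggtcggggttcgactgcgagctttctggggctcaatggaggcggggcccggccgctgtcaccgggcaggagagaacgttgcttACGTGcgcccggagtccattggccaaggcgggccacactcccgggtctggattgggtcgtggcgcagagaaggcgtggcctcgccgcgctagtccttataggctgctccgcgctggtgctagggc
INSIG1: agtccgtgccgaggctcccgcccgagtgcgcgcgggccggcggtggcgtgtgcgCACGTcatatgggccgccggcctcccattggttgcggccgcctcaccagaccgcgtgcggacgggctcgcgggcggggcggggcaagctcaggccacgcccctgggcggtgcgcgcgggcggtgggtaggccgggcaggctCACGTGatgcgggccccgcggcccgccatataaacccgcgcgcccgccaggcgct
On either strand, CA9 and DDIT4 each held ACGTG once, BNIP3 2 times within 1 CACGTG and INSIG1 3 times. Of 9 promoters read, 5 held no ACGTG in this stretch: EGLN3, APLN and ENO1, which rose, HMGCS1, which fell, and PFKFB4, which was not called. Other forms of the element were not counted, such as GCGTG, which the stretches of APLN, ENO1 and PFKFB4 hold. Over the full promoter window of the table, which adds 50 bases after the start, 56.5% of 23 HIF target promoters held ACGTG on either strand, against 27.0% of 10426 promoters of genes tested and 21.6% of all 27305 promoters of the table. The share was 41.6% of 137 in the set induced by low oxygen and lowered by METTL4-si. Among all genes called in METTL4 libraries it was 25.7% of 882 that rose and 21.6% of 1100 that fell. The 6mA site of the study, TCGGAAGT or its reverse complement ACTTCCGA, was in 0.680% of promoters of genes that rose, 0.273% of those that fell and 0.825% of all tested. A match is a description of letters in a window and not a site.

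The same genes were set beside the effect of low oxygen in FADU cells, from 2 libraries at 1% O2 and 2 at 18% O2 treated with scrambled siRNA (Scr-si), which share no library with the overexpression comparison. There a gene was called at an unadjusted p under 0.05 (limma) and 1.3-fold, the thresholds of the study, which 12.4% of 16324 genes passed upward and 12.5% downward. Of the 1825 genes up under hypoxia that were tested here, 392 (21.5%) rose and 272 (14.9%) fell with METTL4. Of the 1966 genes down under hypoxia, 149 (7.58%) rose and 268 (13.6%) fell. Seen from METTL4, 32.6% of its 1204 rising genes that were tested in both comparisons were up under hypoxia and 12.4% were down. Across 15150 genes tested in both, the log2 fold changes correlated at Pearson r = 0.139 and Spearman rho = 0.0312. This is a correlation across genes, which are not independent replicates. Among HIF targets 28 of 30 were up under hypoxia and 1, VEGFA, was down at -0.41, and among glycolysis genes 19 of 20 were up, with medians of 1.87 and 1.18. BNIP3 had log2 fold changes of 2.96 with METTL4 and 3.52 under hypoxia, CA9 2.49 and 3.36, and LDHA 1.31 and 1.47.

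A narrower set was induced at 1% O2 and lowered by siRNA against METTL4 (METTL4-si) at 1% O2, both in FADU and in BFTC909, an upper tract urothelial carcinoma line, by the same thresholds, which gave 200 genes. In each line the same Scr-si libraries at 1% O2 stood in both comparisons, so these conditions are not independent of each other. Of these, 189 were tested here, and 97 (51.3%) rose, 6 (3.17%) fell and 86 were not called. Their median log2 fold change was 0.42, and 166 of them had a positive value, against 51.1% of all genes tested. Some members had both control values under 1 and passed the filter only through the METTL4 libraries. Called upward among them were CA9, PDK1-AS1, SPRY1, DENND2A, HLA-V, AK4P3, TRPA1, PPP1R3G, KDM7A-DT, SAP30-DT, LDHAP7 and SDAD1P1. These are among the 97 and had to differ, so the 51.3% is partly set by the filter. GAPDH-DT and DUSP9 passed the filter in the same way and were not called. Of all these, CA9 alone had a mean value of 5 or more. Among members at that level, CA9 still included, 66 of 134 rose and 4 fell. Genes induced at 1% O2 in both cell lines, without the condition on METTL4-si, had a median of 0.013. Of these 684 genes, 143 (20.9%) rose and 105 (15.4%) fell. Besides the HIF targets above, the set held STC1, a secreted glycoprotein hormone, with values of 14.9 and 11.96 in the control and 128 and 112 in the METTL4 libraries and a rise of 3.07 (limma, adjusted p = 1.37e-09). APLN, the ligand of the apelin receptor, went from 1.53 and 1.26 to 10.6 and 11.96, and ADAM12, a membrane protease, from 3.20 and 3.35 to 18.3 and 17.7. RP11-390F4.3 belongs to it as well. The largest fall in the set was that of CCDC80, a secreted matrix protein, by 1.04, followed by PKP1. METTL4 RNA did not separate the siRNA groups of the FADU libraries used for this choice: it was 26.6 and 25.3 in Scr-si and 24.2 and 27.1 in METTL4-si at 1% O2. Those libraries were used as labelled.

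Genes of sterol synthesis fell in METTL4 libraries. Of 20 genes for cholesterol synthesis, its regulation and lipoprotein uptake, all tested, 19 fell and none rose (0 also at an unadjusted p under 0.05 and with edgeR), with a median of -0.93. INSIG1, the sterol-sensing retention protein of the endoplasmic reticulum, had values of 143 and 135 in the control and 29.3 and 31.3 in the METTL4 libraries and fell by 2.16 (limma, adjusted p = 4.84e-10). SREBF2, the transcription factor SREBP2 that drives these genes, fell by 1.21, from 472 and 475 to 208 and 199.6. Genes of early and late steps were among them. HMGCS1, an early enzyme, fell by 1.12 and SQLE, which oxidizes squalene, by 0.91. LSS, which closes the sterol ring, fell by 1.26 and DHCR7, the last enzyme of the pathway, by 1.56. PMVK was the exception, with values of 4.39 and 4.98 in the control and 5.22 and 5.71 in the METTL4 libraries. Under hypoxia 10 of the 20 were up and none down, with a median of 0.40, so INSIG1, for example, had log2 fold changes of -2.16 with METTL4 and 1.29 at 1% O2.

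Interferon-stimulated genes fell from a low to moderate level. Of 20 tested, 15 fell and none rose (0 also at an unadjusted p under 0.05 and with edgeR), with a median of -0.55. IFI44L had values of 15.2 and 16.00 in the control and 2.78 and 2.04 in the METTL4 libraries and fell by 2.29 ± 0.13 (SE, limma, adjusted p = 1.22e-07). The antiviral effectors OAS1, MX1 and IFIT3 fell by 1.29, 1.25 and 1.01, and HERC5, the ligase for ISG15, by 1.05. The RNA sensor IFIH1 had values of 19.03 and 20.2 in the control and 10.8 and 10.5 in the METTL4 libraries and fell by 0.82. ISG15, IRF7, IRF9, RIGI and IFIT1 were not called, and the groups of IRF7 and RIGI overlapped. The control libraries themselves differed in some of these genes: HERC5 was 65.8 and 80.7 and OASL 73.7 and 92.5. MX2 passed the filter only through the control libraries, and without it the count was 14 of 19. Leaving out either control library put MX2 below the filter, so such fits held 19 of these genes. With 1 library left out at a time, between 11 and 16 of the genes fell. Under hypoxia 13 of the 20 were up and none down.

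Targets of NRF2, the factor of the oxidative stress response, also fell: 9 of 15 tested, none rose (0 also at an unadjusted p under 0.05 and with edgeR), median -0.56. AKR1C3 passed the filter only through the control libraries, and without it the count was 8 of 14. AKR1C1, an aldo-keto reductase, went from 16.3 and 18.1 to 4.77 and 4.85, a fall of 1.64 (limma, adjusted p = 2.73e-07). HMOX1, heme oxygenase 1, fell by 1.22 and GCLC, the catalytic subunit of glutathione synthesis, by 0.90. Among the pentose phosphate enzymes TKT fell by 0.59 and PGD by 0.42 (under 1.3-fold at -0.37 without METTL4 replicate 2 and -0.37 without control replicate 2), and the malic enzyme ME1 by 0.77. NQO1, often taken as the model target, was not called, with values of 354 and 390.2 in the control and 362 and 369 in the METTL4 libraries (overlapping groups, 95% interval of the difference -0.13 to 0.084).

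Most of the tested genes of squamous differentiation fell. Of 24 genes 8 were tested, of which 7 fell and none rose (1 was higher at an unadjusted p under 0.05 alone, 0 with edgeR), with a median of -1.25. KRT4 and KRT13, the keratin pair of the layers above the basal one in mucosa, fell most. KRT4 had values of 31.9 and 36.1 in the control and 4.08 and 3.94 in the METTL4 libraries and KRT13 of 30.8 and 27.7 in the control and 6.96 and 6.12 in the METTL4 libraries, with falls of 2.80 and 2.01 (limma, adjusted p = 2.91e-09 and 3.59e-08). The kallikrein protease KLK10 fell by 1.44 and TGM1, which cross-links the cornified envelope, by 0.91. LCN2 and S100A9, which also fell, passed the filter only through the control libraries, and without them the count was 5 of 6. S100A8, PI3 and SERPINB3 did not pass the filter, with values of 0.572 or less, and the remaining 13 were not analysed here. Of 13 tested basal genes 4 fell and 1 rose. KRT5, the main basal keratin, had values of 2728 and 2661 in the control and 2052 and 1978 in the METTL4 libraries and fell by 0.42, while KRT14, its partner, differed by -0.074 (95% interval -0.18 to 0.029). TP63, the master factor of squamous epithelium, had values of 227 and 206 in the control and 221 and 222 in the METTL4 libraries, and the groups overlapped. TRIM29 fell by 0.71, KRT16 by 0.68 and KRT17 by 0.42, the last under 1.3-fold at -0.28 without METTL4 replicate 2. KRT6A, a keratin of wound healing, rose by 0.56. The keratin genes have close paralogs that can share reads, so single members are uncertain.

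The Notch pathway, which promotes differentiation in squamous epithelium, had lower receptor RNA. Of 13 tested members 6 fell and 1 rose. Among the receptors, NOTCH3 had values of 56.00 and 60.5 in the control and 13.97 and 13.1 in the METTL4 libraries and fell by 2.03 (limma, adjusted p = 3.15e-09), NOTCH1 by 0.98 and NOTCH2 by 0.38. NOTCH2 was under 1.3-fold without METTL4 replicate 1 (-0.36) or control replicate 2 (-0.36). The ligand JAG2 fell by 0.47, and JAG1, another ligand, was not called at -0.31. NRARP, a feedback target of the pathway, fell by 0.89, and HES1, the usual target, had values of 31.4 and 26.4 in the control and 32.3 and 30.4 in the METTL4 libraries that overlapped between the groups. RBPJ, the DNA-binding partner, rose by 0.47. The rising count was 2 with edgeR, with a pseudocount of 0.1, and without control replicate 2 or METTL4 replicate 2, and in both of these last fits the ligand DLL1 was the added gene, at 0.41 and 0.41.

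Matrix-degrading enzymes and their inhibitors rose: 9 of 16 tested, against 2 that fell, PLAT and TIMP2, with a median of 0.67. MMP3, the stromelysin, was near 1 in the control libraries and had values of 0.620 and 1.02 in the control and 10.1 and 8.65 in the METTL4 libraries, a rise of 2.52 (limma, adjusted p = 1.94e-07). The collagenase MMP1 had values of 38.4 and 33.3 in the control and 124 and 116 in the METTL4 libraries and rose by 1.72, and MMP10 by 1.62. Of the plasminogen system, the protease inhibitor SERPINE2 and the urokinase receptor PLAUR rose by 1.36 and 0.85. Urokinase itself, PLAU, did not separate, with values of 224 and 254 in the control and 244 and 244 in the METTL4 libraries, and tissue plasminogen activator, PLAT, fell by 1.49. MMP14, the membrane-bound activator of MMP2, was not called at -0.21. TIMP2, an inhibitor of these proteases, fell by 0.44 but was not called without control replicate 2 (limma, adjusted p = 0.06) or METTL4 replicate 1 (0.16).

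Among laminins and integrins 10 of 20 rose and 3 fell. LAMB3, a chain of an adhesive laminin of epithelial basement membrane, had values of 136 and 137 in the control and 237 and 225 in the METTL4 libraries and rose by 0.76, and LAMA3, another chain of it, by 0.72. The integrin subunits ITGB5 and ITGA2 rose by 1.02 and 0.82. ITGB8, which activates latent TGF-beta, fell by 0.68, and LAMA5 by 0.40, which was under 1.3-fold without control replicate 1 (-0.37) or METTL4 replicate 2 (-0.34).

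Growth factor pathways moved in part. In the EGFR family, 5 of 12 tested members rose and 3 fell. The ligands NRG1, HBEGF and TGFA rose by 1.01, 0.97 and 0.82, and the receptor EGFR, already at 1113 and 1113 in control libraries, rose by 0.42. ERRFI1, a feedback inhibitor of EGFR, rose by 0.76. The ligands BTC and EGF fell by 0.96 and 0.87 at low levels, EGF with values under 1 in both METTL4 libraries, and the receptor ERBB3 by 0.69. EGF passed the filter only through the control libraries, and without it 2 of 11 fell. In the TGF-beta pathway 6 of 16 rose and 1 fell. The ligand TGFB1 rose by 0.69, and INHBA, a subunit of activin, rose by 1.53 from near 0, with values of 0.286 and 0.186 in the control and 2.83 and 2.31 in the METTL4 libraries. INHBA passed the filter only through the METTL4 libraries, and without it 5 of 15 rose. FST, which encodes the activin antagonist follistatin, had values of 30.7 and 34.7 in the control and 98.4 and 94.9 in the METTL4 libraries and rose by 1.54. The inhibitory target gene ID1 fell by 0.94. Receptors TGFBR1 and TGFBR2 were not called, at -0.092, with overlapping groups, and 0.17. SMAD4, the shared mediator, was not analysed here.

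Inflammatory and early response genes moved in both directions. Of 13 tested cytokine and NF-kB target genes 6 rose and 2 fell. PTGS2, the prostaglandin synthase COX-2, had values of 6.96 and 6.33 in the control and 48.95 and 41.1 in the METTL4 libraries and rose by 2.59 (limma, adjusted p = 4.93e-09). The chemokine CXCL8 rose by 1.31, the cytokines LIF and IL6 by 0.77 and 1.01, and TNFAIP3, an inhibitor of NF-kB, by 1.17, while NFKBIZ fell by 0.65. IL6 passed the filter only through the METTL4 libraries, and without it 5 of 12 rose. Of 19 tested immediate early genes 6 rose and 4 fell. DUSP6, a phosphatase that is a feedback target of ERK, had values of 32.4 and 22.7 in the control and 103 and 99.4 in the METTL4 libraries and rose by 1.86, and FOSL1, an AP-1 subunit that ERK stabilizes, rose by 1.76. EGR1 and FOS fell by 1.09 and 0.99. EGR1 was also uneven between the control libraries, at 194 and 142, against 79.6 and 75.6 in METTL4 libraries. Of the 4 tested genes of the metal response, all rose. MT2A, a metallothionein, had values of 70.8 and 64.3 in the control and 245 and 193 in the METTL4 libraries and rose by 1.67, MT1E by 1.24, MT1X by 1.13 and the zinc exporter SLC30A1 by 0.47, which without control replicate 2 was 0.31 and under 1.3-fold. Metallothionein genes are near-identical copies, so reads may be split among them.

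Several lists held few calls. Of 18 enzymes and readers of adenine methylation other than METTL4, ALKBH5, an RNA demethylase, alone rose, with values of 92.5 and 103 in the control and 142 and 133 in the METTL4 libraries and a change of 0.49. The other writers METTL3, METTL14, METTL16 and N6AMT1 differed by 0.0049, 0.015, 0.0093 and 0.18, and the groups of the first 3 overlapped. The reader YTHDF3 was called upward at 0.39 without control replicate 1. Of 21 proteins of the U2 snRNP, the particle whose RNA METTL4 methylates, PHF5A alone was called, at 0.40, and without control replicate 1 its difference was 0.37 and no longer called. Without METTL4 replicate 1 the count was 2, with SF3B4 added at 0.39. The median over all 21 was 0.25, and 16 were higher at an unadjusted p under 0.05 alone. The share of all genes at that threshold was not counted, so this count and those like it below have no background. Mitosis genes held no call in 20 (edgeR also gave 0, and at an unadjusted p under 0.05 alone 6 were higher and 2 lower), with MKI67, the proliferation marker, at 1304 and 1322 in the control and 1277 and 1318 in the METTL4 libraries, where the groups overlapped. CDC20, an activator of mitotic exit, was called upward at 0.39 without control replicate 2. Of 20 DNA replication genes RRM2, CCNE1 and CCNE2 rose, by 0.55, 0.53 and 0.77, and none fell (0 also at an unadjusted p under 0.05 and with edgeR). Of 13 mRNAs encoded in the mitochondrial genome 2 fell, MT-ATP6 by 0.43 and MT-ATP8 by 0.41, and all 13 differences were below 0. Without control replicate 1, or without METTL4 replicate 2, 0 of these mRNAs were called. Of 12 nuclear genes for mitochondrial transcription and replication none was called (edgeR also gave 0, and at an unadjusted p under 0.05 alone 8 were higher), and TWNK, the mitochondrial helicase, was called upward at 0.41 without METTL4 replicate 2. In the unfolded protein response DNAJB9 alone rose, by 0.75, and HSPA5, its chaperone marker, differed by -0.16. In the integrated stress response, PPP1R15A, a phosphatase subunit that ends the response, rose by 1.12 and VLDLR by 0.46, while CEBPB and SLC7A11 fell by 0.82 and 0.56. ATF4, its transcription factor, was not called at 0.23. Of 14 p53 target genes 1 rose and 2 fell. CDKN1A, the cell cycle inhibitor p21, rose by 0.73, and GDF15, a stress cytokine, fell by 1.80, from 23.3 and 22.8 to 6.36 and 5.48. SESN1, a stress-induced metabolic regulator, fell by 0.40 but was not called without METTL4 replicate 1 (-0.35, limma, adjusted p = 0.0595).

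The largest changes reached beyond these lists. Of the 12 largest rises among genes with a mean value of 5 or more, IL1RL1, the receptor of interleukin-33, led, with values of 2.86 and 3.49 in the control and 52.1 and 47.7 in the METTL4 libraries and a log2 fold change of 3.61 ± 0.10 (SE, limma, adjusted p = 6.97e-10). IL24, a cytokine of the interleukin-10 family, had values of 2.0 and 2.56 in the control and 31.1 and 28.6 in the METTL4 libraries and rose by 3.24. TRPV3, a heat-gated calcium channel of keratinocytes, went from 0.429 and 0.372 to 10.3 and 9.74, a rise of 2.98, and passed the filter only through the METTL4 libraries. NT5E, which encodes CD73, the ectoenzyme that makes adenosine, had values of 15.4 and 12.98 in the control and 78.1 and 71.9 in the METTL4 libraries and rose by 2.33. These 4 had FADU hypoxia log2 fold changes of 0.95, -0.16, 0.05 and 0.85. The gene ENSG00000230439, which was not in the annotation used here, rose by 2.32.

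The largest falls were led by SERPINB13, an epithelial protease inhibitor of the stratified squamous layers, with values of 46.1 and 41.5 in the control and 3.68 and 4.26 in the METTL4 libraries and a fall of 3.17 (limma, adjusted p = 1.37e-09). CP, which encodes ceruloplasmin, the copper-carrying ferroxidase, fell by 3.15, from 11.5 and 13.4 to 0.398 and 0.634, and so passed the filter only through the control libraries. SCD, the desaturase that makes monounsaturated fatty acids, had values of 906 and 953 in the control and 126 and 130.1 in the METTL4 libraries and fell by 2.85 ± 0.042 (SE, limma, adjusted p = 5.6e-12). C3 and C1S, complement components, fell by 2.73 and 2.15. MUC4, a membrane mucin, fell by 2.67, and SCNN1A, the alpha subunit of the epithelial sodium channel, by 2.29. TNFSF10, which encodes the death ligand TRAIL, fell by 2.31, from 19.6 and 22.1 to 2.93 and 3.94.

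Calls were made among coding and noncoding genes. Of 12058 protein-coding genes 8.77% rose, as did 5.83% of 1440 lncRNA genes, and 1326 and 157 of these fell. The share that rose was between 5.52% on chromosome 16 and 11.05% on chromosome 8, over the autosomes and the X chromosome. The share that fell was between 5.32% on chromosome 13 and 15.3% on chromosome 4, and the median log2 fold change was between -0.018 on chromosome 14 and 0.050 on chromosome 19. Among runs of 50 neighbouring tested genes, 95% of medians lay between -0.11 and 0.12. The lowest, -0.22, was on chromosome 5 (GRCh37 chr5:138744277-141321612), where 13 of 50 genes fell and 2 rose, followed by a run from ECM1 to S100A3 on chromosome 1 (chr1:150480538-153522612) in which 15 of 50 fell and 1 rose. The highest, 0.23, was also on chromosome 5 (chr5:892999-17354733), where 13 of 50 rose and 1 fell. DNA copy number was not measured in these libraries.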

How the data were processed

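Total RNA was extracted with RNeasy columns, and stranded libraries depleted of ribosomal RNA were sequenced on a NextSeq 550, per the labels and the methods of the study. The authors used Trim Galore for trimming, HISAT2 for alignment (hg19), htseq-count for gene counts and the TMM method of edgeR for scaling, with versions not given in the sources used here. The deposited signal is the CPM after this scaling. All values (100%) were whole multiples of 1 read within 0.01 read.

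Genes with a value of 1 or more in 2 of 4 libraries were tested with limma 3.58.1 (eBayes with trend, R 4.3.3) on log2(value + 1), with Benjamini-Hochberg adjustment. Fold changes understate those of low genes. A gene was called at an adjusted p under 0.05 and 1.3-fold. edgeR 4.0.16 on the recovered reads was an alternative. The test was checked on simulated data. Genes were located in GENCODE 44 on GRCh37 (14817 found), and tables were handled with pandas 2.3.3 under Python 3.11.15. Of the overexpression columns, 2 matched no sample and were not used, so the fit holds 4 libraries. The overexpression libraries of RP11-390F4.3 were not analysed here. Columns of the authors' own comparisons, with fold changes and p-values, were not used.

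The gene lists and the genes named were chosen with earlier results of these data known. The rule for names took METTL4 and its neighbours, the genes the study examined, the 12 largest called changes in each direction with a mean of 5 or more, up to 4 called members of each list and the called members of the 4 lists with the highest share of calls. Other list members were named after their values were seen, for their role or because they were not called. Replicates of a group differed beyond counting noise (chi-square per degree of freedom 5.83 and 3.66), so neither pair was treated as 1 library deposited again. Whether they share an RNA sample or a culture is not given in the sources used here. DNA 6mA and protein were not analysed here. Some list members are counted but not reported singly here.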

Additional observations from a re-analysis of the deposited data

How the results depend on the processing

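The counts of 1236 rising and 1610 falling genes moved by over 1.5 times under few settings. With a pseudocount of 5 they were 774 and 848, at 2-fold or more 203 and 204, and with a mean value of 5 or more the falling genes were 982 of 10994 tested. At 2-fold, 36 genes of the set up under hypoxia and down with METTL4-si rose, against 97, and 82 list members were called of 449, against 210. edgeR on whole reads called 1306 up and 1707 down, and centring each library at its median 1215 and 1633. With 1 library left out, rising genes numbered 944 to 1338 and falling genes 1331 to 1461, where a lone library is assumed to vary like the others. CTNNA1 changed sign between -0.049 and 0.043 when 1 library was left out, and ZMIZ1 between -0.0091 and 0.068, neither called. Of 125 named genes, all kept direction and call with edgeR, 118 did with a pseudocount of 5 and 124 without the variance trend. Replicate numbers did not pair the samples: deviations of same-numbered libraries correlated at 0.0893, and a fit with the number as a block called 1277 up and 1675 down. The fit to the control and METTL4 libraries alone, planned as an alternative, is the reported one, and a fit over 3 groups was not run. Without the filter 1320 genes of 18316 were called up and 1771 down. Of 19 list members under the filter, 1 was then called up (ZEB2) and 4 down (SERPINB3, SMAD6, ERBB4 and AKR1B10), each on at most 34 reads in a library.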

Other observations

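Beside sterol synthesis, genes of fatty acid synthesis were lower in METTL4 libraries. This list and the 3 that follow were chosen after their values were seen, so their counts describe these libraries and are no test. All 11 tested of 12 genes of fatty acid synthesis and its regulation fell, against 10.6% of all genes tested, with a median log2 fold change of -1.10 against 0.008 for all genes. FASN, the fatty acid synthase, had values of 1325 and 1303 in the control and 634 and 588 in the METTL4 libraries and fell by 1.11 (limma, adjusted p = 9.63e-09). SREBF1, which encodes the transcription factor SREBP1 of these genes, went from 199 and 184 to 57.7 and 50.5, a fall of 1.81. The desaturase FADS1 fell by 1.77, the acetate-activating enzyme ACSS2 by 1.61 and the elongase ELOVL6 by 0.89. MLXIPL, a carbohydrate-responsive factor, lay at the filter with values of 1.00 and 1.02 in the control and 0.596 and 0.317 in the METTL4 libraries, and passed it only through the control libraries, which leaves 10 of 10 without it.

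Of 10 tested complement genes 6 fell and 2 rose, with a median of -0.78. C1R passed the filter only through the control libraries, and without it 5 of 9 fell. The components C3, C1S and C1R and the regulators CFI and CD46 were among those that fell, CFI from 30.1 and 27.5 to 6.16 and 7.25. The membrane inhibitors of complement moved apart. CD55 rose by 1.34, from 52.1 and 47.3 to 137 and 119, and CD59 by 0.42, while CD46 fell by 0.54. All 4 tested membrane mucins fell, MUC4, MUC20, MUC16 and MUC1 by 2.67, 2.04, 1.61 and 0.60, at values under 15 in all libraries. MUC16 passed the filter only through the control libraries, and without it the count was 3 of 3. SCNN1A, the only subunit of the epithelial sodium channel tested, had values of 99.7 and 97.99 in the control and 19.04 and 19.8 in the METTL4 libraries.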
